A study of Mus musculus with 30 samples.

Results

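The C59 effect on gene expression in mouse forelimb buds was compared between 18 h and 24 h after injection, as the difference between treated and control limb buds at the later time minus the same difference at the earlier time. The contrast uses 12 of the 30 polyA RNA-sequencing libraries of the time course, namely 3 each of DMSO at 18 h, C59 at 18 h, DMSO at 24 h and C59 at 24 h. All embryos came from wild-type Swiss Albino females injected at E10.5 with Wnt-C59 in DMSO or with DMSO alone. Injection was systemic and into the mother, so all cells of the limb bud and of the rest of the embryo were exposed, and the libraries hold whole limb buds with mesenchyme, ectoderm and blood. According to the study's methods, limb buds were staged in part by their size, and RNA for each replicate came from a pair of limb buds. Transcripts of male and of female cells were, however, both present in 7 of the 12 libraries, as given further below. Controls received DMSO in saline, whereas the carrier of C59 also held methylcellulose and a detergent.

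C59 blocks porcupine, an enzyme of the endoplasmic reticulum that attaches a lipid to WNT proteins. Without this lipid WNT ligands are neither secreted efficiently nor bound by Frizzled receptors, so that β-catenin is degraded and the transcription of feedback targets such as *Axin2*, an inhibitor within the pathway, falls. In the limb bud WNT signals from the ectoderm keep the underlying mesenchyme proliferating and hold back the *Sox9*-expressing cells that form cartilage. They also act with the sonic hedgehog (SHH), fibroblast growth factor (FGF) and bone morphogenetic protein (BMP) pathways, which control outgrowth and digit patterning. The interval from 18 h to 24 h is the last of the time course.

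The 12 libraries held between 18331160 and 38974885 counts. The replicates of each group differed by more than sampling noise, and C59 18 h replicate 3 stood apart. The chi-square per degree of freedom between its counts and those of replicates 1 and 2 was 47.6 and 39.9, against 4.33 between these replicates themselves. It also had the highest summed level of 13 erythroid marker genes, 8281 CPM (counts scaled to library size) against 4202 to 6293 in the other 11 libraries. It had the lowest sum of the 6 forelimb mesenchyme markers, 1454 CPM, whereas the other libraries ranged from 1611 to 1764. The counts below that depended most on this library are also given without it. The study's methods state that replicates of each condition and time came from several litters, but neither they nor the labels tie a library to a litter, and the p-values measure the spread between these libraries.

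The C59 effect changed between 18 h and 24 h for 960 of 13794 protein-coding autosomal genes (6.96%) at an adjusted p below 0.05 (edgeR quasi-likelihood test with Benjamini-Hochberg adjustment). It rose, that is, became less negative or more positive, for 487 genes (3.53%) and fell for 473 genes (3.43%). The change was beyond 1 on the log2 scale for 175 genes (1.27%), of which 82 rose (0.594%) and 93 fell (0.674%). The C59 effect itself was called for 2253 genes (16.3%) at 18 h, 8.59% of all genes being higher in C59 and 7.74% lower, and for 241 genes (1.75%) at 24 h, 0.819% higher and 0.928% lower. The number of changed genes depended on single libraries. It was 2057 without C59 18 h replicate 3. It fell to 470 without C59 24 h replicate 2, to 492, 581 and 544 without DMSO 24 h replicates 1, 2 and 3, and to 638 and 610 without DMSO 18 h replicates 1 and 3. Genes called in these fits and in the full one had the same sign throughout. The number of genes called at 24 h was 775 without C59 18 h replicate 3.

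The changed genes were sorted by their effects at both times. The largest class, 772 genes, was called at 18 h and no longer called at 24 h, and is termed recovered here, although a missing call does not show that C59 and DMSO were equal. Their median effect moved from -0.57 to 0.10 on the log2 scale for the 429 genes that rose and from 0.55 to -0.14 for the 343 that fell. A further 5 genes were called at both times with the same sign and a smaller effect at 24 h (partly recovered). The effect was called with opposite signs in 19 genes (overshoot). It was called at 24 h and not at 18 h in 47 genes (late), was larger at 24 h in 1 gene, and was called at neither time in 116. Effect and change share the 18 h libraries, so that the sizes of the classes describe the contrast and do not test it. Without C59 18 h replicate 3, the recovered, overshoot and late classes held 1333, 76 and 195 genes (and partly recovered and neither 23 and 429), and 681, 17 and 43 of these were in the same class in the full fit. Without DMSO 18 h replicate 1 they held 473, 13 and 55 genes, of which 452, 9 and 36 were in the same class.

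**Figure D1:**
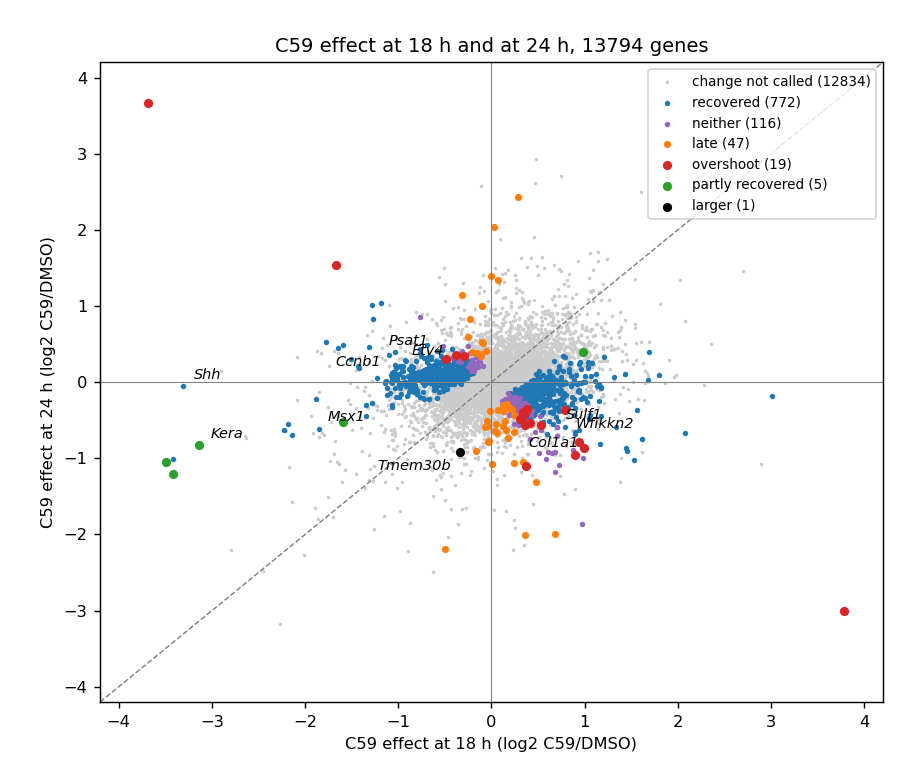
The C59 effect (log2 C59/DMSO) of each tested gene at 18 h on the x axis and at 24 h on the y axis, with genes of each class in colour, grey for genes whose change was not called, and a dashed line where both effects are equal. Recovered genes lie along the horizontal line at 0, away from the dashed line, and 12 of the 13794 genes lie outside the plotted range.

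Libraries collected at 12 h, which have no part in the contrast, gave the effect of the same genes at an earlier time. Of the 481 rising genes tested at 12 h, 398 (82.7%) were called lower in C59 limb buds, against 25.5% of all genes. Of the 469 falling genes, 311 (66.3%) were called higher in C59, against 22% of all genes. The groups of changed genes were thus mostly on the same side of DMSO at 12 h as at 18 h.

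The change occurred mainly in the C59 limb buds. From 18 h to 24 h, 775 of the 960 genes were called in the C59 arm alone, 64 in the DMSO arm alone, 59 in both (34 of them in opposite directions) and 62 in neither. Over all genes, 2951 (21.4%) were called between the times in the C59 arm and 608 (4.41%) in the DMSO arm. In the DMSO arm the level rose with time for 470 genes (3.41%) and fell for 138 (1%), and in the C59 arm it rose for 1496 (10.8%) and fell for 1455. Without C59 18 h replicate 3, 1121 genes were called in the DMSO arm and 4250 in the C59 arm. The lowest counts were 241 in the DMSO arm, without DMSO 18 h replicate 3, and 1932 in the C59 arm, without C59 24 h replicate 2. On log2(FPKM + 1) values the split by direction was 521 to 62 and 2008 to 954.

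The most uniform group was that of genes for G2 phase and mitosis. All 35 listed genes were expressed at a lower level in C59 limb buds at 18 h, 34 of them past the test (against 7.74% of all genes). None was called at 24 h, when 1.75% of all genes were called in either direction. The C59 effect rose for 32 of 35 genes (91.4%, against 3.53% of all genes) and fell for none. The median effect of the list was -0.34 at 12 h, -0.83 at 18 h and 0.00 at 24 h, with members between -1.08 and -0.59 at 18 h and between -0.36 and 0.15 at 24 h. The 3 members whose change was not called were *Cenpe*, *Cenpf* and *Mki67*. In the C59 arm 32 genes of the list rose from 18 h to 24 h (against 10.8% of all genes). In the DMSO arm 3 fell and none rose (against 1% and 3.41%). Without C59 18 h replicate 3 the number of changed members was again 32, and it was 28 without DMSO 18 h replicate 1. In bulk RNA, fewer cells of a kind and less RNA per cell cannot be told apart.

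*Ccnb1*, the cyclin B1 that activates CDK1 at entry into mitosis, shows the pattern. Its level was 244, 244 and 257 CPM in the DMSO libraries at 18 h, and 123, 119 and 116 CPM in C59. At 24 h it was 208, 212 and 213 CPM in DMSO and 228, 224 and 210 CPM in C59. The groups did not overlap at 18 h and overlapped at 24 h. The effect was -1.05 ± 0.06 (log2 ± SE, n = 3 per group in the edgeR fit) at 18 h and 0.06 ± 0.06 at 24 h, a change of 1.12 ± 0.08 (adjusted p = 2.79e-05). *Cdk1* itself was at 171, 164 and 170 CPM in DMSO and at 101, 93.3 and 86.4 CPM in C59 at 18 h. At 24 h these values were 153, 152 and 154 against 171, 175 and 164 CPM, so that all C59 libraries lay above all DMSO libraries, although this difference was not called (0.15 ± 0.07, adjusted p = 0.311). *Bub1*, a kinase of the spindle checkpoint, had the largest change of the list (1.18 ± 0.18, adjusted p = 0.00222). *Aurkb*, the kinase of the chromosomal passenger complex, changed by 0.97 ± 0.09 (adjusted p = 0.000123), and *Ube2c*, the ubiquitin-conjugating enzyme of the anaphase-promoting complex, by 1.01 ± 0.11 (adjusted p = 0.000338). *Cdc25c*, the phosphatase that activates CDK1, changed by 1.08 ± 0.16 (adjusted p = 0.00159).

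Since these genes moved together, the 120 bases before the annotated start of transcription are shown for 3 of them, read 5′ to 3′ on the strand of the gene from RefSeq promoter windows (GRCm38.p6). Capitals mark the letters TTTGAA, the core of the cell cycle genes homology region (CHR) through which the DREAM complex and MuvB act on late cell cycle genes, and CCAAT, the box bound by NF-Y. Both were searched on both strands, so that TTCAAA and ATTGG mark matches on the opposite strand. The windows lie on the minus strand of chr10:69352913-69353032 for *Cdk1*, on the plus strand of chr2:164769809-164769928 for *Ube2c* and on the minus strand of chr13:100786487-100786606 for *Ccnb1*.
Cdk1: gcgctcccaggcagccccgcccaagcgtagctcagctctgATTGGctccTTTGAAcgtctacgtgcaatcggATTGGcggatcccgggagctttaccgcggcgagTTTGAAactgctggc
Ube2c: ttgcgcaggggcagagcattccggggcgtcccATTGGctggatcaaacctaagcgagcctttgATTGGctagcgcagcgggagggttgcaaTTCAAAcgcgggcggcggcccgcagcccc
Ccnb1: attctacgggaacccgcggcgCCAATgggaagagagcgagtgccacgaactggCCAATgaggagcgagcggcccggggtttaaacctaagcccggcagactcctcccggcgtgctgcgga

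The *Cdk1* window held 2 CHR and 2 CCAAT matches, that of *Ube2c* held 1 and 2, and that of *Ccnb1* held 2 CCAAT matches alone. The windows of *Plk1* and *Bub1b*, which are not shown, each held 1 CCAAT match and no CHR match. A window was found for 28 of the 35 G2 and mitosis genes and for 10706 of the 13794 tested genes, by symbol. Over the 250 bases before the start, TTTGAA occurred in 11 of the 28 genes (39.3%) and in 12.6% of all tested genes with a window. CCAAT occurred in 22 of 28 (78.6%) and in 39.9% of all. CCAAT was not particular to this list. It also occurred in 16 of 27 S phase genes (59.3%), in 14 of 14 genes of cholesterol synthesis (100%) and in 3 of 13 WNT feedback targets (23.1%). Among the genes whose C59 effect rose, 20.1% held TTTGAA and 53.9% held CCAAT, and among those whose effect fell, 9.86% and 38.9%. These are descriptions of letters, and no binding was measured.

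Genes of S phase rose as well, but fewer of them. The effect rose for 14 of 34 tested genes (41.2%, against 3.53% of all genes) and fell for none, and the list median was -0.67 at 12 h, -0.34 at 18 h and 0.07 at 24 h. Without C59 18 h replicate 3, 20 genes rose. *Tk1*, the thymidine kinase of nucleotide salvage, was at 75.1, 68 and 74 CPM in DMSO and 40.6, 40.9 and 57.3 CPM in C59 at 18 h, and at 68.9, 65 and 67 against 91.8, 82.5 and 77.4 CPM at 24 h. Its C59 libraries thus lay below all controls at 18 h and above all controls at 24 h. The change was 0.97 ± 0.17 (adjusted p = 0.00426), while the effect at 24 h was not called (0.33 ± 0.12, adjusted p = 0.20). *Mcm7*, a subunit of the replicative helicase, was the single member called at 24 h (0.59 ± 0.13, adjusted p = 0.0346; 5 members without C59 18 h replicate 3), and its level fell from 358 to 410 CPM at 18 h to 179 to 249 CPM at 24 h in DMSO, where the C59 libraries were at 285 to 374 and 306 to 367 CPM. Ribosome biogenesis, by contrast, had no changed member among 19 genes (4 rises without C59 18 h replicate 3), with medians of -0.74 at 12 h, -0.09 at 18 h and 0.12 at 24 h.

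**Figure D2:**
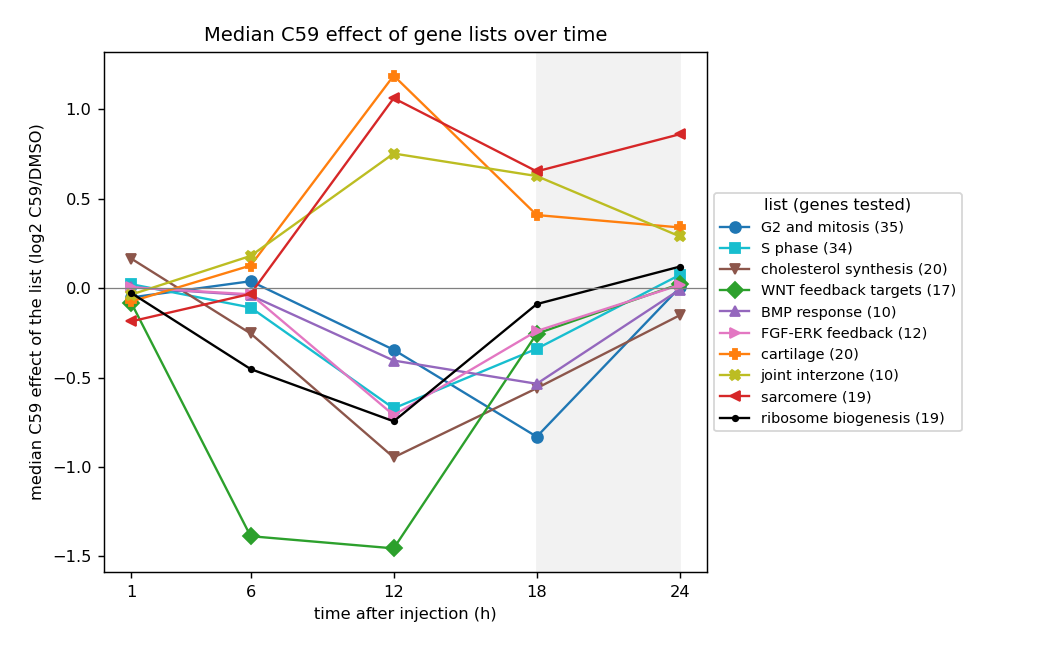
The median C59 effect (log2 C59/DMSO) of 10 gene lists at the 5 collection times (x axis, h), each point the median over the tested genes of the list (numbers in the legend), with the compared interval shaded. G2 and mitosis genes were lowest at 18 h (-0.83) and at 0.00 at 24 h, whereas WNT feedback targets were lowest at 12 h (-1.45) and sarcomere genes stayed above 0 from 12 h on.

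Of the WNT feedback targets, most of the effect at 12 h had passed by 18 h. Their median was -1.45 at 12 h with 16 of 17 genes called lower (against 25.5% of all genes). It was -0.25 at 18 h with 7 called lower (against 7.74%), and 0.02 at 24 h. The effect rose from 18 h to 24 h for 5 of 17 genes (29.4%, against 3.53% of all genes) and fell for none. *Axin2*, the standard readout of β-catenin signalling, did not pass the test. It was at 114, 111 and 112 CPM in DMSO and 109, 92.7 and 104 CPM in C59 at 18 h, and at 120, 113 and 109 against 117, 104 and 100 CPM at 24 h, and the change was 0.06 ± 0.11 (adjusted p = 0.792). Its effect had been -1.97 at 6 h and -1.45 at 12 h.

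*Dkk1*, a secreted antagonist of the WNT co-receptors, had the largest change of the list. It was at 12.97, 10.46 and 8.902 CPM in DMSO and 2.15, 2.34 and 2.43 CPM in C59 at 18 h, and at 9.18, 8.29 and 7.68 against 5.29, 6.05 and 4.91 CPM at 24 h. The C59 libraries lay below all controls at both times, and the effect moved from -2.22 ± 0.17 to -0.62 ± 0.15, a change of 1.60 ± 0.23 (adjusted p = 0.00132). *Nkd2*, an inhibitor of Dishevelled, changed by 0.66 ± 0.12 (adjusted p = 0.00496). *Fzd10*, a receptor, and *Apcdd1*, a membrane antagonist of the pathway, both changed by 0.52 (SE 0.13 and 0.14, adjusted p = 0.0294 and 0.0348). They kept this call under 16 and 15 of 25 alternative settings. The secreted WNT antagonists as a group moved both ways, with 4 rises and 4 falls among 12 genes (against 3.53% and 3.43% of all genes). *Sostdc1*, which also binds BMPs, and *Dkk2* rose (0.82 ± 0.16, adjusted p = 0.00852, and 0.57 ± 0.13, adjusted p = 0.0178), and *Sfrp2* and *Sost* fell. None of the 16 tested WNT ligands changed, and 7 of them were higher in C59 at 18 h (against 8.59% of all genes) and 4 at 24 h (against 0.819%).

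BMP response genes rose in 6 of 10 cases (60%, against 3.53% of all genes), with a list median of -0.53 at 18 h and -0.01 at 24 h, and in 4 without DMSO 18 h replicate 1. *Msx1*, a homeobox transcription factor of undifferentiated limb mesenchyme, had the smallest p of all genes together with *Ccnb1*. It was at 119, 106 and 119 CPM in DMSO and 35.7, 29.5 and 28.5 CPM in C59 at 18 h, and at 109, 104 and 109 against 92.1, 95.4 and 88.9 CPM at 24 h. C59 libraries remained below all controls at 24 h, but the effect had moved from -1.88 ± 0.09 to -0.22 ± 0.08, a change of 1.66 ± 0.12 (adjusted p = 2.79e-05). At 12 h it had been -3.01. Its relative *Msx2* changed by 0.55 ± 0.12 (adjusted p = 0.0144), and *Id1* and *Id2*, dominant-negative helix-loop-helix factors, by 0.81 ± 0.20 (adjusted p = 0.0241) and 0.96 ± 0.21 (adjusted p = 0.0144). Among the ligands *Bmp2* changed by 0.38 ± 0.10 (adjusted p = 0.0446), a call kept under 7 of 25 alternatives. *Bmp4* (0.26 ± 0.14, adjusted p = 0.278) and the BMP antagonist *Grem1* (-0.25 ± 0.14, adjusted p = 0.314) did not pass. *Grem1* was higher in C59 at 18 h (0.35 ± 0.10, adjusted p = 0.0259), after effects of -2.94 at 6 h and -1.92 at 12 h.

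Feedback genes of FGF and ERK signalling rose in 3 of 12 cases (25%, against 3.53% of all genes), and in 6 without C59 18 h replicate 3. *Etv4*, an ETS factor induced by FGF in the distal mesenchyme, was at 75.9, 68.1 and 72.8 CPM in DMSO and 35.1, 33.8 and 41.2 CPM in C59 at 18 h, and at 55.2, 55.5 and 49.7 against 69.3, 61.7 and 55.5 CPM at 24 h. The change was 1.20 ± 0.14 (adjusted p = 0.000411). *Spry4*, an inhibitor of receptor signalling, changed by 0.76 ± 0.12 (adjusted p = 0.00268) and *Etv5* by 0.55 ± 0.10 (adjusted p = 0.00766). *Dusp6*, a phosphatase of ERK, missed the threshold (0.45 ± 0.14, adjusted p = 0.0638) but was called under 7 of 25 alternatives. *Fgf8*, the main ligand of the apical ectodermal ridge, changed by 1.19 ± 0.29 (adjusted p = 0.0238, kept under 18 of 25 alternatives), from -0.70 ± 0.20 to 0.49 ± 0.20. In this case the DMSO libraries fell, from 15.2, 13.1 and 15.9 CPM to 6.73, 7.97 and 7.32 CPM, whereas the C59 libraries were at 11.1, 7.06 and 8.9 CPM and then at 11.1, 12.8 and 6.97 CPM.

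The same held for *Shh*, the ligand of the posterior limb bud margin. It was at 7.55, 5.35 and 6.43 CPM in DMSO at 18 h and at 0.782, 1.43 and 0.523 CPM at 24 h. In C59 limb buds it was at 0.536, 0.831 and 0.556 CPM and then at 0.773, 1.46 and 0.344 CPM. The groups were far apart at 18 h and overlapped at 24 h, where both were low. The C59 effect moved from -3.31 ± 0.41 to -0.06 ± 0.45, a change of 3.26 ± 0.62 (adjusted p = 0.00743), but the level in the C59 arm did not change past the test (0.47, adjusted p = 0.542), and that in the DMSO arm fell by 2.79 on the log2 scale (adjusted p = 0.00143). *Shh* is thus in the recovered class without an increase in C59 limb buds. *Ptch1*, the SHH receptor and target, did not change (0.30 ± 0.14, adjusted p = 0.213). *Gli2*, a transcriptional effector of the pathway, fell from 0.55 ± 0.09 to -0.04 ± 0.09 (change -0.59 ± 0.12, adjusted p = 0.0108).

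**Figure D3:**
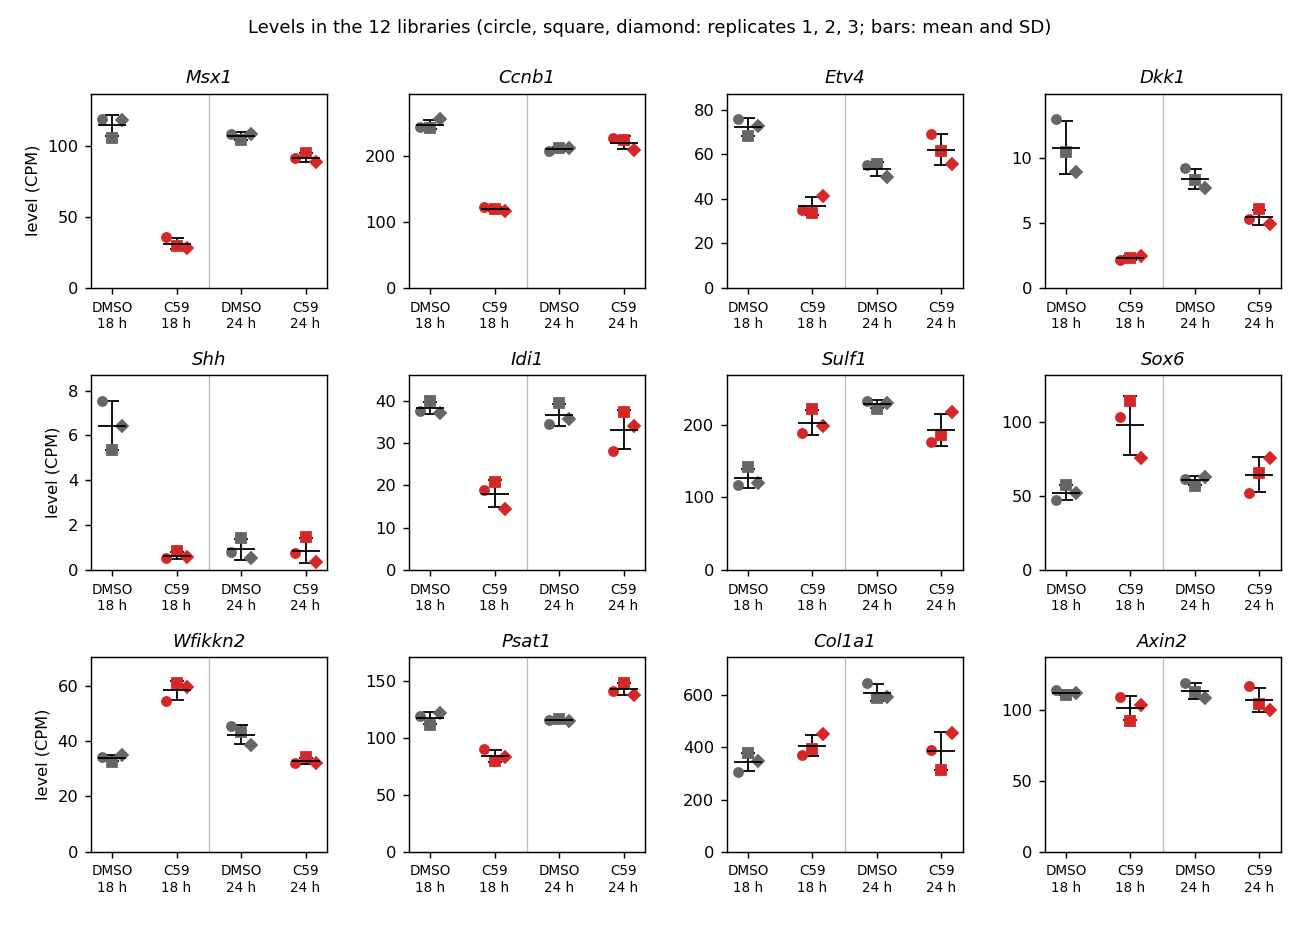
Levels (CPM, linear axes from 0) of 12 genes in the 12 libraries, grey for DMSO and red for C59, with a symbol for each replicate and bars for the mean and SD of 3 libraries. *Msx1*, *Ccnb1*, *Etv4* and *Idi1* rose in C59 from 18 h to 24 h, whereas for *Shh* the DMSO level fell and for *Col1a1* the DMSO level rose while C59 stayed between 313 and 455 CPM.

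Genes of cholesterol metabolism, targets of the SREBP2 factor, were lower in C59 at 18 h in 15 of 20 cases (against 7.74% of all genes), with a median of -0.56, and 19 of 20 had been lower at 12 h (against 25.5%, median -0.95). The effect rose for 8 genes (40%, against 3.53% of all genes) and fell for none, and the median at 24 h was -0.15. Without C59 18 h replicate 3, 13 rose. *Insig1*, the sterol-regulated anchor of SREBP, was at 83.2, 76.2 and 82.8 CPM in DMSO and 40, 40.8 and 42.2 CPM in C59 at 18 h, and at 72.7, 83.3 and 84.2 against 75.8, 78.5 and 78.9 CPM at 24 h (change 0.93 ± 0.10, adjusted p = 0.000353). *Idi1* and *Msmo1*, enzymes of the pathway, changed by 0.95 ± 0.18 (adjusted p = 0.00743) and 0.94 ± 0.18 (adjusted p = 0.00823). All 20 list members were still below 0 at 24 h, from -0.43 to -0.03, and *Tm7sf2*, named after its values were seen, was the single one called there (-0.43 ± 0.10, adjusted p = 0.0381), where 6 were called without C59 18 h replicate 3.

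Chondrogenic genes moved mostly in the falling direction in the study's own panel and in both directions in a general list. The study picked its chondrogenesis panel from these same libraries, so that the panel is not independent evidence. Of its genes, 10 of 13 were higher in C59 at 18 h (against 8.59% of all genes) and 1 at 24 h (against 0.819%). Without C59 18 h replicate 3, 6 were higher at 24 h. The effect fell for 5 (38.5%, against 3.43% of all genes), with 7 falls without C59 18 h replicate 3 and 3 without DMSO 18 h replicate 1. In the general cartilage list 4 of 20 fell and 1 rose and the median moved from 0.41 to 0.34, with 2 falls without DMSO 18 h replicate 1 and 6 without C59 18 h replicate 3. *Sulf1*, a heparan sulfatase that modifies the sulfation of WNT and FGF co-receptors, was at 117, 142 and 120 CPM in DMSO and 189, 222 and 198 CPM in C59 at 18 h. At 24 h it was at 233, 222 and 230 CPM in DMSO and 176, 186 and 218 CPM in C59, so that C59 lay above all controls first and below all of them later. The change was -0.92 ± 0.13 (adjusted p = 0.00169), and it was the DMSO level that moved (0.85, adjusted p = 0.000511), while that in C59 did not pass the test (-0.07, adjusted p = 0.647). *Sfrp2*, a secreted WNT-binding protein, behaved otherwise. It was at 132, 125 and 115 CPM in DMSO and 239, 264 and 257 CPM in C59 at 18 h, and at 134, 148 and 154 against 175, 182 and 170 CPM at 24 h, with all C59 libraries above all controls at both times (change -0.77 ± 0.11, adjusted p = 0.00125).

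*Sox5* and *Sox6*, the partners of SOX9 in cartilage, fell by 0.74 and 0.81 on the log2 scale (SE 0.19 and 0.21, adjusted p = 0.0341 and 0.0352). These calls were kept under 14 and 12 of 25 alternatives. In C59 18 h replicate 3 *Sox6* was at 75.2 CPM, against 103 and 114 CPM in replicates 1 and 2. *Col2a1*, the main collagen of cartilage, fell by 0.46 (SE 0.12, adjusted p = 0.0359, kept under 16 of 25 alternatives). *Sox9* itself did not pass (-0.36 ± 0.17, adjusted p = 0.208, called under 2 of 25 alternatives), with effects of 0.33 ± 0.12 at 18 h and -0.04 ± 0.12 at 24 h that were not called either. *Bmpr1b*, a BMP receptor of the digit condensations, was close to the controls at both times (0.15 and 0.04). In the opposite direction, *Runx3*, a Runt factor of cartilage and sensory neurons, rose from -1.44 ± 0.22 to 0.21 ± 0.17 (change 1.64 ± 0.28, adjusted p = 0.00436). Of 10 joint interzone genes, 3 fell (against 3.43% of all genes) and none rose. *Osr2*, a zinc finger factor, fell from 0.96 ± 0.09 to 0.17 ± 0.09 (adjusted p = 0.00222). *Jun*, a subunit of AP-1 and a member of this list, stayed higher in C59 at 24 h (0.40 ± 0.07, adjusted p = 0.0124), after 0.98 ± 0.07 at 18 h.

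**Figure D4:**
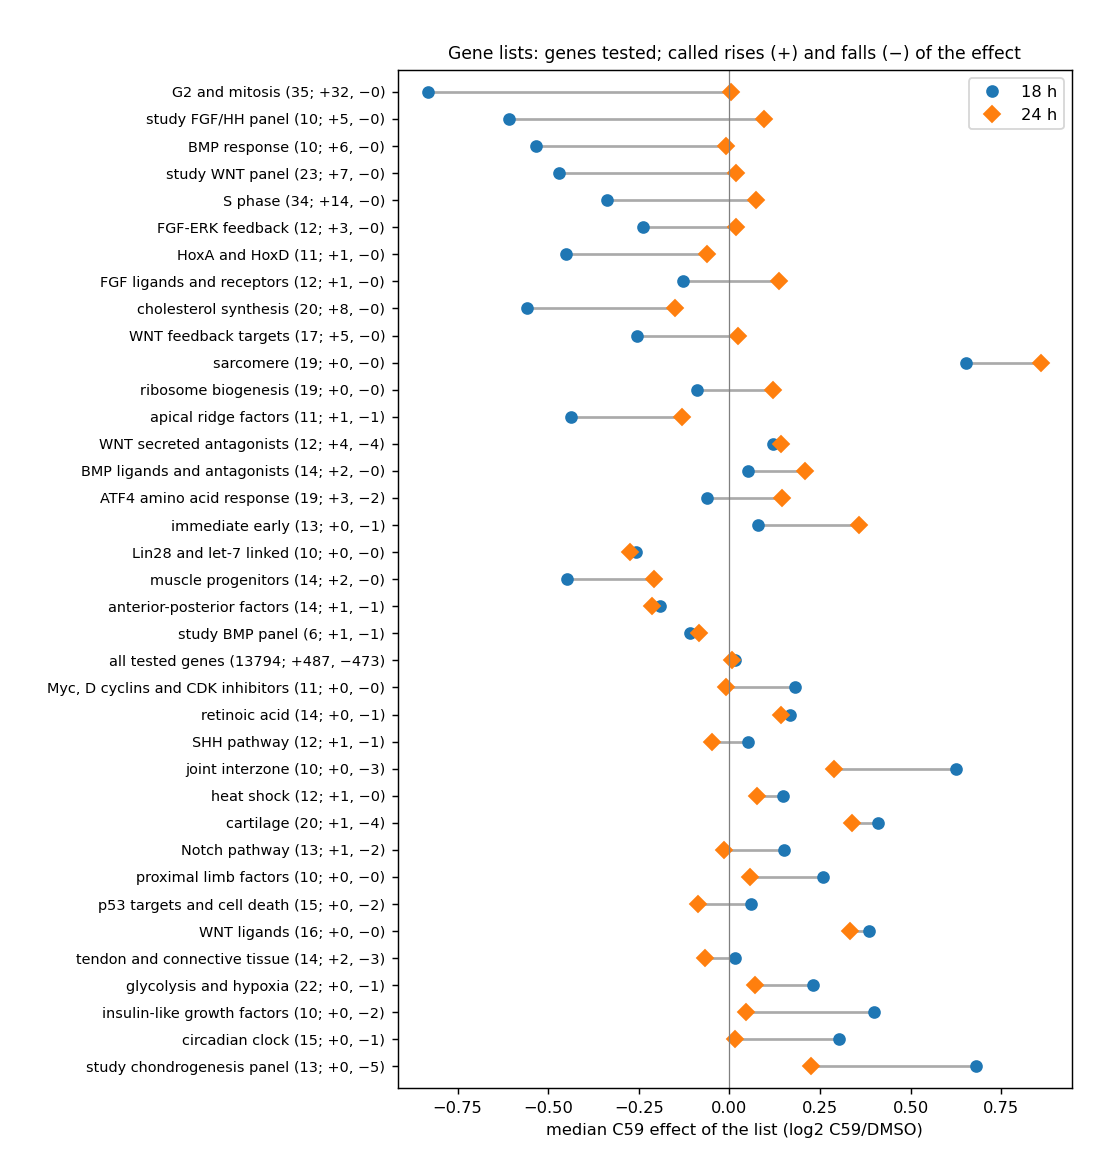
The median C59 effect (log2 C59/DMSO) of each gene list at 18 h (blue circles) and 24 h (orange diamonds), ordered by the median change, with the numbers of genes tested and of called rises and falls of the effect after the name. The longest line belongs to G2 and mitosis (from -0.83 to 0.00), and the medians of sarcomere genes lay to the right at both times (0.65 and 0.86).

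Connective tissue genes moved in both directions, with 2 rises and 3 falls among 14 (against 3.53% and 3.43% of all genes), and 1 of each without DMSO 18 h replicate 1. *Lum* and *Kera*, small leucine-rich proteoglycans of collagen matrix that are neighbours on chromosome 10, both rose. *Kera* was at 11.6, 11.8 and 10.8 CPM in DMSO and 1.56, 1.09 and 1.21 CPM in C59 at 18 h, and at 15.2, 19.7 and 17.2 against 7.18 to 11.7 CPM at 24 h. Its effect remained negative at 24 h (-0.83 ± 0.16, adjusted p = 0.0186) after -3.13 ± 0.21 (change 2.31 ± 0.27, adjusted p = 0.000433). *Lum* moved from -1.34 ± 0.13 to -0.30 ± 0.12 (change 1.04 ± 0.17, adjusted p = 0.00359). *Col1a1*, the fibrillar collagen of tendon and dermis, was lower in C59 at 24 h alone. It was at 305, 376 and 349 CPM in DMSO and 372, 395 and 450 CPM in C59 at 18 h, and at 648, 588 and 594 against 391, 313 and 455 CPM at 24 h. The DMSO level thus rose and the C59 level did not (change -0.90 ± 0.17, adjusted p = 0.00812).

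Myogenic genes split by stage. Among 14 genes of muscle progenitors, 7 were lower and 1 higher in C59 at 18 h (against 7.74% and 8.59% of all genes), 4 were lower at 24 h (against 0.928%), and the effect rose for 2. *Lbx1*, the homeobox factor of migrating myoblasts, moved from -1.60 ± 0.11 to -0.52 ± 0.11 (change 1.07 ± 0.15, adjusted p = 0.00137) and was still below all controls at 24 h, with 13.2, 15.8 and 14.1 CPM against 19.3, 21.9 and 20.8 CPM. *Myf5*, a myogenic determination factor, moved from -1.12 ± 0.13 to -0.07 ± 0.12 (change 1.05 ± 0.18, adjusted p = 0.00473). *Pax3*, a factor upstream of these and named after its values were seen, was at -1.31 ± 0.15 and -1.28 ± 0.16 and did not change (adjusted p = 0.957). Listed sarcomere genes, in contrast, were higher in C59 in 9 of 19 cases at 18 h (against 8.59% of all genes) and in 9 at 24 h (against 0.819%). None of these 19 changed past the test. The count at 18 h was 1 without DMSO 18 h replicate 1 and 5 without C59 18 h replicate 3, and in the latter fit the effect rose for 3 of them. *Myl4*, an embryonic myosin light chain, was the member with the largest rise (1.04 ± 0.36, adjusted p = 0.101), and *Neb*, nebulin, that with the largest fall (-1.06 ± 0.47, adjusted p = 0.197). Muscle genes outside the list did change in the edgeR fit. *Actn3* fell (-2.67 ± 0.42, adjusted p = 0.00253) and *Tnnt3*, named after its values were seen, rose (1.26 ± 0.34, adjusted p = 0.0436). Both treatments gained sarcomere transcripts with time. Of the list, 16 genes rose in the DMSO arm (against 3.41% of all genes) and 15 in the C59 arm (against 10.8%).

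Few genes of distal and anterior-posterior identity changed past the test. The median effect of the HoxA and HoxD list moved from -0.45 to -0.06, and the change was above 0 for 9 of 11 genes. Of 11 genes of the HoxA and HoxD clusters (with *Evx2*), 6 were lower in C59 at 18 h (against 7.74% of all genes) and 4 at 24 h (against 0.928%). *Hoxa11*, active in the zeugopod, rose (0.54 ± 0.13, adjusted p = 0.0253), a call kept under 16 of 25 alternatives. *Hoxd12* was at 156, 153 and 167 CPM in DMSO and 99, 101 and 99.2 CPM in C59 at 18 h, and at 155, 157 and 151 against 107, 102 and 98.1 CPM at 24 h. Its effect was -0.67 ± 0.06 at 18 h and -0.59 ± 0.06 at 24 h (change 0.07 ± 0.09, adjusted p = 0.661), after 0.01 at 6 h and -0.16 at 12 h. *Hoxd13*, the most 5′ gene of its cluster, was lower at both times too (-0.88 ± 0.10 and -0.51 ± 0.09, change 0.36 ± 0.13, adjusted p = 0.12), as were *Hoxa13* and *Evx2*, named after their values were seen. *Hoxd11* was not called at either time (-0.05 and -0.05). *Pax9*, of the anterior margin, rose from -1.34 ± 0.13 to -0.45 ± 0.11 (change 0.89 ± 0.17, adjusted p = 0.00771). *Wnt2* and *Wnt2b*, ligands of the interdigit, changed by -0.43 ± 0.38 and -0.34 ± 0.25 (adjusted p = 0.546 and 0.47) at levels of 2.08 to 7.98 CPM.

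The 19 genes with opposite calls at both times comprised 14 falls and 5 rises. The C59 and DMSO libraries of all 19 were fully separated at both times. So were those of 33.6% of all genes at 18 h and 27.6% at 24 h, each time taken alone. The largest changes of the class were those of *Lipo2* (7.35 ± 0.87), *Gm10320* (-6.79 ± 0.69) and *Gm10031* (3.20 ± 0.54). *Lipo2* reached at most 1.34 CPM, and *Gm10320* had means of 0.29 CPM in DMSO at 18 h and 0.46 CPM in C59 at 24 h. The ribosomal protein gene *Rpl35a* changed by -1.47 ± 0.16. Whether reads of these genes were shared with similar sequences was not measured. *Wfikkn2*, a secreted binding protein for GDF8 and GDF11, was at 34.1, 32.6 and 34.9 CPM in DMSO and 54.4, 61.1 and 59.4 CPM in C59 at 18 h, and at 45.3, 43.3 and 38.4 against 32.1, 34.1 and 32 CPM at 24 h. The effect moved from 0.78 ± 0.08 to -0.37 ± 0.08 (change -1.15 ± 0.11, adjusted p = 0.000157), after 1.19 at 12 h. *Psat1*, the phosphoserine aminotransferase of serine synthesis, took the opposite course. It was at 120, 112 and 122 CPM in DMSO and 90.4, 79.8 and 83.3 CPM in C59 at 18 h, and at 116, 117 and 115 against 142, 149 and 138 CPM at 24 h (from -0.48 ± 0.07 to 0.30 ± 0.07, change 0.78 ± 0.10, adjusted p = 0.000537). Within the list of ATF4 targets to which it belongs, *Mthfd2* of mitochondrial folate metabolism rose (0.65 ± 0.12, adjusted p = 0.00592), and the stress-induced *Ddit4* and *Sesn2* fell by 0.87 and 0.63 (adjusted p = 0.00856 and 0.00862), 3 rises and 2 falls of 19 in all and 6 rises without C59 18 h replicate 3.

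Among the 47 late genes, 32 fell and 15 rose. Of the 46 tested at 12 h, 12 were called lower and 14 higher in C59 there (26.1% and 30.4%, against 25.5% and 22% of all genes). These shares were not far from those of all genes. Some late genes were thus already called at 12 h and others were not, and the name refers to the comparison with 18 h only. Besides *Col1a1* and *Mcm7* they included *Cyp26b1*, the enzyme that degrades retinoic acid in the distal limb. It was at 298, 299 and 318 CPM in DMSO and 306, 261 and 326 CPM in C59 at 18 h, and at 250, 252 and 223 against 174, 160 and 152 CPM at 24 h (change -0.54 ± 0.12, adjusted p = 0.0198, kept under 21 of 25 alternatives). *Actn3*, the actinin of fast muscle fibres, rose in DMSO from 3.35, 5.16 and 3.46 to 12.2, 13.3 and 15.7 CPM, whereas C59 was at 4.14, 5.5 and 10.1 and then at 2.54, 3.32 and 4.61 CPM (change -2.67 ± 0.42, adjusted p = 0.00253). At 12 h the effect had been called for all of these named late genes. It was -0.59 for *Cyp26b1*, -0.71 for *Mcm7*, 0.51 for *Col1a1* and 1.97 for *Actn3*. *Tmem30b*, a subunit of phospholipid flippases, was the gene with a larger effect of the same sign at 24 h (-0.33 ± 0.10 and -0.91 ± 0.10, change -0.58 ± 0.14, adjusted p = 0.0264, kept under 17 of 25 alternatives). It was not in this class without C59 18 h replicate 3, nor without DMSO 18 h replicate 1.

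Several of the changes with the greatest size belong to genes with copies or in clusters of related genes, and their values are uncertain. Whether reads were shared between similar sequences was not measured. *Tpm3-rs7*, an intronless copy of tropomyosin 3, was at 174 to 188 CPM in DMSO at 18 h and at 3.18, 2.98 and 58.3 CPM at 24 h, and in C59 at 1.62 to 3.9 and then 99.9 to 133 CPM (change 8.55 ± 1.19, adjusted p = 0.00125). *Rpl26*, a ribosomal protein gene with processed copies, was at 172 to 318 CPM in C59 at 18 h and at 21.1 to 41.5 CPM in the other groups. *Zfp979*, *Zfp984* and *Zfp985*, zinc finger genes of a cluster on chromosome 4, were nearly absent from the 3 C59 libraries at 24 h. *Zfp984* was at 0.644, 0.277 and 0.589 CPM there and at 8.33 to 17.5 CPM in the other 9 libraries (change -5.17 ± 0.42, adjusted p = 4.05e-05). No label ties these libraries to litters. For these zinc finger genes, an inherited difference between litters and a change of the C59 effect cannot be told apart, and this was not tested. Apart from these genes, another large fall was that of *Padi4*, a peptidylarginine deiminase. It was at 0.0546 to 0.168 CPM in DMSO at 18 h, at 0.924 to 4.56 CPM in DMSO at 24 h, and at 6.38 to 14.7 CPM in the C59 libraries.

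Marker genes of other cell types were measured beside these results. The 14 surface ectoderm genes summed to 388 to 404 CPM in DMSO and 521 to 592 CPM in C59 at 18 h, and to 456 to 469 against 557 to 607 CPM at 24 h, higher in all C59 libraries at both times, and 1 of 14 changed (*Grhl2*, -0.57 ± 0.12, adjusted p = 0.0133). The 12 macrophage genes summed to 55.1 to 57.9 against 76.7 to 82.1 CPM at 18 h and to 63.9 to 72.9 against 73.2 to 81.7 CPM at 24 h, and none of them changed past the test. The 12 endothelial genes summed to 455 to 496 against 503 to 555 CPM at 18 h and to 489 to 504 against 440 to 474 CPM at 24 h, higher in all C59 libraries first and lower in all of them later. Of these genes 1 changed (*Tie1*, -0.64 ± 0.17, adjusted p = 0.0418, kept under 14 of 25 alternatives). None of 12 tested erythroid genes changed past the test, but the change of all 12 was below 0, with a median of -0.35, as was that of all 4 platelet genes. The 9 Schwann and crest genes summed to 97.2 to 107 against 131 to 158 CPM at 18 h and to 125 to 134 against 123 to 185 CPM at 24 h, with 1 change (*Erbb3*, -0.56 ± 0.15, adjusted p = 0.0456, kept under 14 of 25 alternatives). The 9 neuronal genes summed to 33.5 to 38.1 against 28.6 to 31.4 CPM at 18 h and to 38.7 to 43.0 against 25.6 to 31.5 CPM at 24 h, lower in all C59 libraries at both times. Members disagreed at 18 h, where the effect was below 0 for 4 of 6 tested genes and above 0 for 2. *Stmn2* was at 6.05 to 7.59 CPM in DMSO and 8.6 to 9.72 CPM in C59 at 18 h. At 24 h the effect was below 0 for all 6. Of 6 tested, 1 changed (*Isl1*, 1.23 ± 0.29, adjusted p = 0.0219), and of the platelet genes 1 did (*Itga2b*, -0.77 ± 0.19, adjusted p = 0.0272). The forelimb markers were present throughout, whereas the 2 hindlimb genes summed to 14.91 to 18.97 CPM. Of the 6 forelimb mesenchyme markers, *Msx1* and *Prrx2* rose. The part of cell composition in the changes was not tested.

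**Figure D5:**
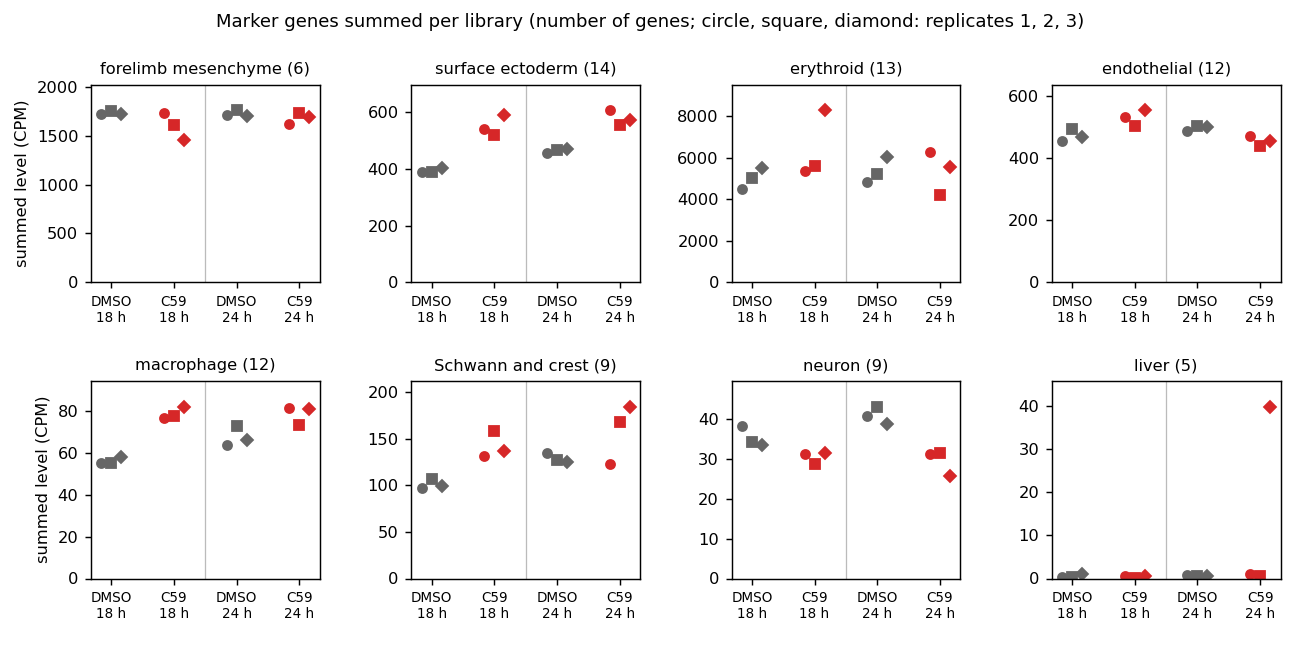
Summed level (CPM, linear axes from 0) of marker genes of 8 cell types or tissues in each of the 12 libraries, grey for DMSO and red for C59, with a symbol for each replicate. Surface ectoderm genes were higher in all C59 libraries at both times, erythroid genes were highest in C59 18 h replicate 3 (8281 CPM), and liver genes were above 1 CPM in C59 24 h replicate 3 alone (39.9 CPM).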

How the data were processed

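Per the labels and the study's methods, adapters were removed by the authors with cutadapt 1.16, and alignment to mm10 used STAR 2.7.0e and a custom annotation. They deposited 1 table of raw counts per gene for 50833 autosomal genes, without normalization, and 1 table of FPKM from Cufflinks 2.2.1. The strand setting of the counts is not given in the sources used here. Totals are given in the report and limit precision to counting error and library spread.

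Genes were matched to GENCODE M21 (GRCm38), which covered 50628 of them. Protein-coding autosomal genes of the 12 libraries at 18 h and 24 h were tested in edgeR 4.0.16 (R 4.3.3) by quasi-likelihood, with TMM scaling and with genes kept by filterByExpr at counts of at least 10 and a total of at least 15. The 4 groups had a mean each, without covariates, and the contrasts were the change, the effect at each time and the change in each arm. The effect at 12 h was fitted on its own 6 libraries. Tests were two-sided and adjusted by Benjamini-Hochberg over all tested genes, with calls at an adjusted p below 0.05. Standard errors follow from the F statistic. CPM are scaled to TMM library sizes. The biological coefficient of variation was 10.3%.

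On simulated counts for the change with 13794 genes, the test recovered 10% of 50 genes changed by 0.5 on the log2 scale and 68% of 50 changed by 1, and 6 of 132 calls were unchanged genes.

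The members, classes and gene lists were chosen with earlier results of these data known. Named genes are *Axin2*, *Sox9* and genes the study followed in tissue, the 12 largest rises and falls with a mean of at least 1 CPM, the 4 smallest p-values of each class, and up to 4 changed members of each list, or its 2 extremes. Alternatives were DESeq2 1.42.0, other size factors and filters, all genes, all 30 libraries, robust or weighted fits (limma 3.58.1), log2(FPKM + 1) and log2(FPKM + 0.1), stricter thresholds, a replicate block, and fits that each dropped a single library. Class and list counts that omit either the library C59 18 h replicate 3 or, separately, DMSO 18 h replicate 1 were added after seeing the data.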

Additional observations from a re-analysis of the deposited data

Results flagged for a closer look

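The C59 effect differed between 18 h and 24 h for 960 genes by the test of the difference itself, which is the subject of the report. In 19 of them the effect was called in opposite directions at both times, and in all 19 the C59 and DMSO libraries did not overlap at either time, against 33.6% of all genes at 18 h and 27.6% at 24 h. The calls at both times largely fix this separation.

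Further signals in the same 12 libraries lay in genes outside the comparisons described. The 5 liver genes summed to 39.9 CPM in C59 24 h replicate 3 and to less than 1 CPM in the other 11 libraries, and *Afp* gave 32.7 CPM of this sum. Of the 5, *Apoa1* alone was tested, and its change was not called. Its part in the results was not tested. In the FPKM table, 8 of 12 libraries had a sum above 1 FPKM for 4 genes of chromosome Y, in 1 of 3 DMSO and 2 of 3 C59 libraries at 18 h and in 2 of 3 and 3 of 3 at 24 h. Of these 8 libraries 7 also had *Xist* above 1 FPKM. The study's methods give 1 pair of limb buds per replicate. Transcripts of male cells (chromosome Y) and of female cells (*Xist*) in 1 library differ from what a pair from 1 embryo would give. The number of embryos in each library was not tested. The tested genes are all autosomal.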

How the results depend on the processing

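The number of genes whose C59 effect changed was 960. DESeq2 gave 1517, and 572 at 24 h and 916 in the DMSO arm, against 241 and 608. With all 30 libraries in 1 fit the counts were 2307 for the change, 3855 at 18 h, 672 at 24 h, 1116 in the DMSO arm and 4517 in the C59 arm. Limma voom with library weights gave 2744, 3763, 1213, 2249 and 4536 in the same order. A test against a log2 value of 0.5 left 45, 173, 20, 66 and 349, and 855 at 12 h. Requiring a log2 value beyond 1 left 175, 230, 73, 165 and 473, and 660 at 12 h. Leaving out 1 library gave 470 to 2057 for the change, 1345 to 2627 at 18 h, 77 to 775 at 24 h, 241 to 1121 in the DMSO arm, 1932 to 4250 in the C59 arm and 5135 to 6151 at 12 h. The cause of these shifts was not tested. The other alternatives for scaling, filtering, gene set, robust fit and FPKM kept all 6 counts within 1.5 times. Upper-quartile factors turned the split at 12 h from 2934 higher and 3396 lower to 4088 and 2575.

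Replicate numbers did not pair the libraries. Residuals of libraries with the same number correlated between -0.275 and 0.158, and 1 of 18 such pairs was above 0.1. With the replicate number as a block the change was called for 691 genes and the effect at 24 h for 153.

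Of 103 named genes that were called, 60 kept their call under all alternatives run for single genes other than the log2 threshold of 1. The change of *Myh15* reversed on log2(FPKM + 1), where it was -0.01685 and not called. In the self-test, changes of 0.5 on the log2 scale were mostly missed. The adjustment was stricter there, with 132 calls in all against 960 in the data, so that the share missed in the data may be lower.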

Other observations

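Other gene groups changed in few members, and over all genes the effect rose for 3.53% and fell for 3.43%. Of 13 Notch pathway genes the C59 effect fell for *Notch2* (-0.76 ± 0.19, adjusted p = 0.0277, kept under 17 of 25 alternatives) and for the ligand *Dll1* (-0.89 ± 0.18, adjusted p = 0.0103), while *Hey1* rose (0.64 ± 0.15, adjusted p = 0.0227) in the edgeR fit. Of 10 genes of insulin-like growth factor signalling, the receptors *Igf1r* and *Igf2r* fell by 0.69 each (adjusted p = 0.0234 and 0.0461, kept under 19 and 12 of 25 alternatives). In both, the libraries of the C59 group at 18 h were above all controls, and the groups did not overlap at 18 h for 33.6% of all genes. Of 22 genes of glycolysis and hypoxia 1 fell, *Egln3*, a prolyl hydroxylase induced by hypoxia (-0.71 ± 0.14, adjusted p = 0.00812), and without C59 18 h replicate 3 there were 6 falls and 1 rise. Of 15 clock genes *Tef* fell (-0.45, kept under 18 of 25 alternatives), and of 12 heat shock genes *Hspd1* rose (0.45, kept under 14 of 25).

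Genes linked to *Lin28* and let-7 did not change past the test, and their median effect was -0.26 at 18 h and -0.27 at 24 h. The proximal limb factors also had no changed member among 10, although 3 fell without C59 18 h replicate 3. Of the 10, 5 were higher in C59 at 18 h (against 8.59% of all genes) and none at 24 h (against 0.819%).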
